A study of Homo sapiens with 6 samples.

Results

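The dual specificity MAP kinase phosphatases are a family of 10 catalytically active enzymes that switch off ERK, p38 and JNK kinases. Members were taken as the probe sets whose only gene symbol was DUSP1, DUSP2, DUSP4, DUSP5, DUSP6, DUSP7, DUSP8, DUSP9, DUSP10 or DUSP16. All 10 genes were found among 18377 genes measured on 6 arrays, each with 1 such probe set. They were followed in MCF10A-HER2/3 cells, which derive from MCF10A, a non-transformed line of human mammary epithelium, kept as three-dimensional cultures over 15 days. HER2 and HER3, in the name of the line, are the receptors encoded by ERBB2 and ERBB3. Whether the ERBB2 and ERBB3 probe sets read introduced as well as endogenous transcripts was not tested. Each group carried a doxycycline-inducible lentiviral vector, with SHP2 miR2, SHP2 miR1 or a control miR (CTRL miR), and each had 2 arrays. Both SHP2 miRs are directed at SHP2, the tyrosine phosphatase encoded by PTPN11, so the question here is how transcripts of the phosphatase family stand once SHP2 has been depleted. Doxycycline was present in all 3 groups from the day after seeding, CTRL miR included. The medium of all groups also held EGF, insulin, cholera toxin, hydrocortisone and horse serum. The labels do not say whether the lines were clones or pools, nor if the 2 arrays of a group were independent cultures. The p-values therefore reflect array-to-array spread that could be technical.

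MAP kinases are activated by phosphorylation of a threonine and a tyrosine in their activation loop, and these phosphatases remove both phosphates. Many family members are themselves transcribed in response to MAP kinase activity, which closes a negative feedback loop around the kinase. SHP2 acts downstream of receptor tyrosine kinases and promotes RAS-ERK signalling. By known substrate preference the 10 genes were split into 4 ERK-specific members (DUSP5, DUSP6, DUSP7 and DUSP9), 3 broad members (DUSP1, DUSP2 and DUSP4) and 3 stress-kinase members (DUSP8, DUSP10 and DUSP16), which prefer p38 and JNK.

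PTPN11 lay below both controls on each of the 4 SHP2 miR arrays. The log2 value of PTPN11 was 6.90 and 7.28 with SHP2 miR2, 6.04 and 5.71 with SHP2 miR1, and 7.96 and 8.44 with CTRL miR. SHP2 miR1 gave the lower values of the SHP2 miRs, with no overlap between the groups. Averaged over both SHP2 miRs, the PTPN11 difference was -1.72 (SE 0.19, adjusted p = 0.00184), a 3.28-fold decrease. Taken singly it was -1.11 with SHP2 miR2, which did not pass (adjusted p = 0.0813), and -2.32 with SHP2 miR1 (adjusted p = 0.000548). ERBB3 fell by 1.35 on the log2 scale averaged over both SHP2 miRs (SE 0.13, adjusted p = 0.000959). The ERBB2 difference was -0.38 (SE 0.13, adjusted p = 0.136), with -0.12 for SHP2 miR2 (adjusted p = 0.819) and -0.64 for SHP2 miR1, which passed (adjusted p = 0.0310). Of 10 basal mammary epithelial markers 6 were measured, all above the 40th percentile of probe sets, and KRT14 was their only member past the threshold, higher with the SHP2 miRs. Of 5 measured leukocyte markers and 5 endothelial markers, 2 and 2 lay above that percentile, and the summed leukocyte log2 values were 22.9 to 23.6 with SHP2 miR2, 24.3 to 24.4 with SHP2 miR1 and 22.03 to 22.4 with CTRL miR, while the leukocyte gene PTPRC was between 3.18 and 3.53 on every array. The largest leukocyte difference was that of CD14, at 0.96 (adjusted p = 0.0505), and with SHP2 miR1 alone it passed at 1.08 (adjusted p = 0.0366). Among the endothelial markers PECAM1 rose and TEK fell, KDR passed with SHP2 miR1 alone (0.60, adjusted p = 0.0418), and their summed values were 24.4 to 24.8 with SHP2 miR2, 23.9 to 24.4 with SHP2 miR1 and 24.6 to 24.8 with CTRL miR. Of 7 fibroblast, 4 adipocyte and 3 hepatocyte markers, 5, 2 and 1 lay above the 40th percentile of probe sets. The fibroblast genes DCN and COL1A1 had mean log2 values of 8.30 and 6.82 over all arrays. Averaged over both SHP2 miRs, 0, 0 and 0 of the fibroblast, adipocyte and hepatocyte markers passed in limma. Likewise 0, 0 and 0 had an unadjusted p under 0.05 in that comparison. The part of these markers in the results was not tested. Arrays of whole cultures cannot tell fewer cells of a type from less RNA per cell.

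The family had 3 genes that fell with the SHP2 miRs: DUSP4, DUSP6 and DUSP5. A difference was called where the adjusted p of limma's moderated test was under 0.05 after Benjamini-Hochberg adjustment over all genes. Averaged over both SHP2 miRs, 3 of 10 members were lower and 0 higher, against 2.67% of all genes lower and 1.53% higher. On all 4 SHP2 miR arrays 6 members lay below both controls (DUSP1, DUSP4, DUSP5, DUSP6, DUSP7 and DUSP10), against 13.6% of all genes. None lay above both controls, against 12.6% of all genes. The median difference of the 10 was -0.39, beside 0.02 over all genes tested. The family was chosen with earlier results of these arrays known, so the counts are a description.

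**Figure D1:**
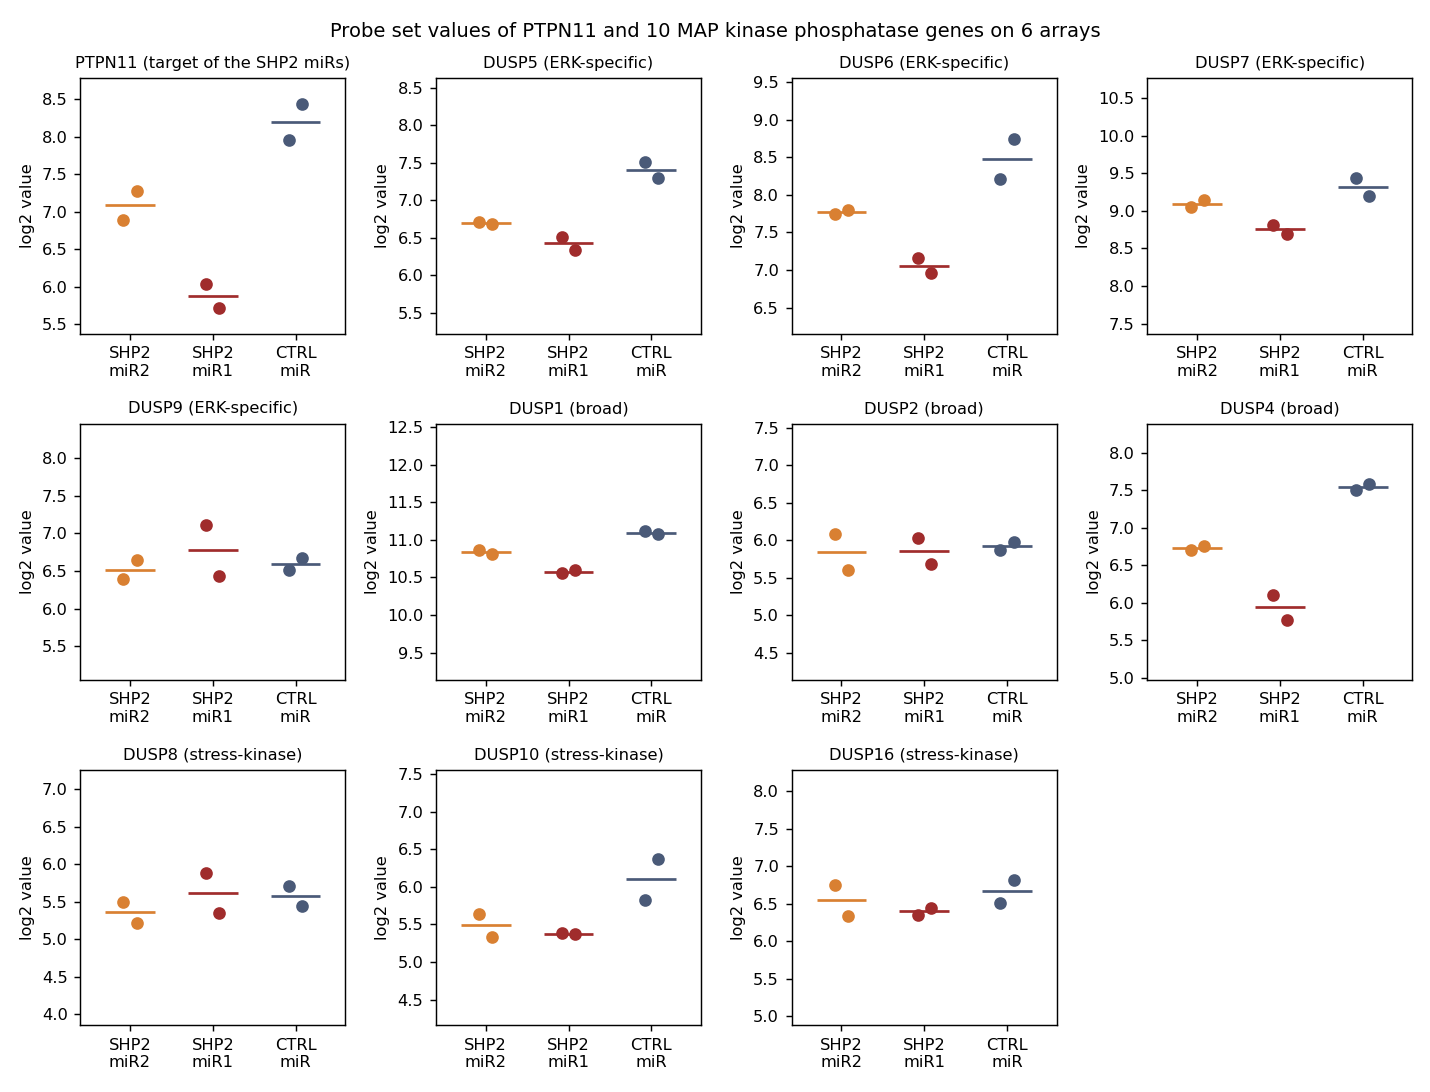
Log2 probe set values (y axis, each panel spanning the same range) of PTPN11 and the 10 phosphatase genes on each array with SHP2 miR2, SHP2 miR1 and CTRL miR. Points are single arrays and lines are group means of 2 arrays. DUSP4, DUSP5 and DUSP6 step down as PTPN11 does, with CTRL miR at the top and SHP2 miR1 at the bottom. DUSP1 and DUSP7 keep that order without overlap, at smaller differences from CTRL miR. The difference between the SHP2 miRs passed the threshold for none of the genes shown. The share of all genes in that order was not counted. The groups overlap for DUSP2, DUSP8, DUSP9 and DUSP16.

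Among the ERK-specific members, DUSP6 and DUSP5 fell while DUSP7 and DUSP9 did not pass. DUSP6 encodes MKP-3, a cytoplasmic phosphatase that binds and inactivates ERK and is a widely used marker of ERK pathway output. DUSP6 had log2 values of 7.75 and 7.79 with SHP2 miR2, 7.16 and 6.96 with SHP2 miR1, and 8.22 and 8.74 with CTRL miR. No group overlapped another, although the controls themselves differed by 0.53, more than either SHP2 miR pair. The average difference was -1.06 (SE 0.17, 2.09-fold, 95% interval -1.44 to -0.69, adjusted p = 0.0101).

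The promoter sequence of DUSP6 is shown with those of DUSP1 and DUSP10, 1 member from each substrate class that lay below both controls on all 4 SHP2 miR arrays. DUSP7, of the same class as DUSP6, did so too and is not shown. Of the 10 members, 8 matched the RefSeq promoter table (all but DUSP4 and DUSP5), with 10 windows of 300 bases between them. The stretches are the 250 bases before the annotated start, on the minus strand of GRCh38.p14, at chr12:89352502-89352751 for DUSP6, chr5:172771196-172771445 for DUSP1 and chr1:221742090-221742339 for DUSP10. Capitals mark the CCAAT box in DUSP6 and DUSP10 (CCAAT on the strand shown or ATTGG where it lies on the other strand), and the CRE (TGACGTCA), E-box (CACGTG) and TATA motif (TATAAA) in DUSP1.
DUSP6 promoter: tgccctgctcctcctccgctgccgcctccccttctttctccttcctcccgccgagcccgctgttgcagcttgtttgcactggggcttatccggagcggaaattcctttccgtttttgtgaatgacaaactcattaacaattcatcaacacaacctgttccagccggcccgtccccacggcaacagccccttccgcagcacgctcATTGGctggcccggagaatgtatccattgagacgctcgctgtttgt
DUSP1 promoter: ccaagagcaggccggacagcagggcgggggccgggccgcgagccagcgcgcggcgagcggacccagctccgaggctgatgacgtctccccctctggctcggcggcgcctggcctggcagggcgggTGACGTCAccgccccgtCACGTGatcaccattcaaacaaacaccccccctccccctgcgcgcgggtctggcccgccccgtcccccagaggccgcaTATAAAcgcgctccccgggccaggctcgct
DUSP10 promoter: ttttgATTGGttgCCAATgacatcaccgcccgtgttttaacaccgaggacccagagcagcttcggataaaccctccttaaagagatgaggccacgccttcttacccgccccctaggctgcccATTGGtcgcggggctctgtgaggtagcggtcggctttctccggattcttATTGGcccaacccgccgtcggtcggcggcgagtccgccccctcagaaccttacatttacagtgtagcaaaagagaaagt
Motifs were searched on both strands of all 35116 windows of the table, and matches in members did not overlap a match to another motif. The CCAAT box lay in 4 of the 10 member windows, against 34.6% of all windows. It lay once in that of DUSP6 and 4 times in the DUSP10 window shown. DUSP10 has 2 windows, of which the one at the higher coordinate is shown. The other, at chr1:221736851-221737150, had no CCAAT box. The CRE, the element bound by CREB, lay in 2 member windows, those of DUSP1 at -125 to -118 from the start and of DUSP8, against 1.85% of all windows. The TATA motif lay in 1 (DUSP1, at -30 to -25), against 11.5%, and the E-box in 2 (DUSP1 and DUSP2), against 7.26%. The GC box GGGCGG lay in 9 member windows, that of DUSP6 being the exception, against 45.0%. The AP-1 motif TGANTCA, the ETS motif CCGGAA and the CArG box of serum response factor lay in 0 member windows, against 7.71%, 17.2% and 1.29%. The shorter ETS core GGAA occurs in the DUSP6 stretch shown. It was not searched for, so there is no share of all windows to set beside it. A match describes letters in these windows, not binding.

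DUSP5 encodes a nuclear phosphatase that binds ERK and holds it in the nucleus. Its log2 value was 6.71 and 6.69 with SHP2 miR2, 6.52 and 6.34 with SHP2 miR1, and 7.51 and 7.29 with CTRL miR. The groups did not overlap, and the SHP2 miR2 arrays lay between the other groups. The average difference was -0.84 (SE 0.14, 1.78-fold, 95% interval -1.14 to -0.53, adjusted p = 0.0111). A pseudogene of this gene, DUSP5P1, named here after its values were seen, has 2 probe sets of its own. The first had 4.74 and 4.65 with SHP2 miR2, 4.64 and 4.61 with SHP2 miR1, and 4.77 and 4.44 with CTRL miR, and its groups overlapped. The second had 6.10 and 6.21 with SHP2 miR2, 6.44 and 6.85 with SHP2 miR1, and 6.60 and 6.61 with CTRL miR, so that SHP2 miR2 was below the controls and SHP2 miR1 spanned them. Whether pseudogene transcripts bind the DUSP5 probe set was not tested.

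DUSP7 encodes a cytoplasmic ERK phosphatase closely related to DUSP6. Its log2 value was 9.05 and 9.14 with SHP2 miR2, 8.81 and 8.69 with SHP2 miR1, and 9.43 and 9.20 with CTRL miR. All 4 SHP2 miR arrays lay below both controls, but SHP2 miR2 replicate 2 lay close to CTRL miR replicate 2. The average difference was -0.39 (SE 0.13, 95% interval -0.70 to -0.09) and did not pass over all genes (adjusted p = 0.144). DUSP9, a cytoplasmic ERK phosphatase best known from placenta and kidney, had 6.39 and 6.65 with SHP2 miR2, 7.12 and 6.43 with SHP2 miR1, and 6.52 and 6.67 with CTRL miR. Its groups overlapped, and SHP2 miR1 replicate 1 was the highest array. The average difference of DUSP9 was 0.05 with a 95% interval of -0.39 to 0.50 (adjusted p = 0.908).

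Among the broad members, DUSP4 fell while DUSP1 and DUSP2 did not pass. DUSP4 encodes MKP-2, a nuclear phosphatase induced by ERK that acts on ERK and JNK. Its log2 value was 6.70 and 6.76 with SHP2 miR2, 6.11 and 5.78 with SHP2 miR1, and 7.50 and 7.58 with CTRL miR. The groups did not overlap, and the controls differed by 0.08, less than those of DUSP6. The average difference was -1.21 (SE 0.14, 2.31-fold, 95% interval -1.52 to -0.89, adjusted p = 0.00263).

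DUSP1 encodes MKP-1, an immediate early nuclear phosphatase that acts on p38, JNK and ERK and is also induced by glucocorticoids. DUSP1 had log2 values of 10.87 and 10.81 with SHP2 miR2, 10.56 and 10.60 with SHP2 miR1, and 11.12 and 11.07 with CTRL miR. The groups did not overlap and the controls differed by only 0.05. The average difference of -0.39 (SE 0.12, 1.31-fold, 95% interval -0.67 to -0.11) did not pass over all genes (adjusted p = 0.122). DUSP2, a nuclear phosphatase best known from lymphocytes, had 6.09 and 5.60 with SHP2 miR2, 6.03 and 5.69 with SHP2 miR1, and 5.87 and 5.98 with CTRL miR. Both SHP2 miR groups of DUSP2 spanned the controls, and its difference was -0.07 (95% interval -0.46 to 0.32, adjusted p = 0.852).

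None of the stress-kinase members passed in limma, where 1 of 3 had an unadjusted p under 0.05, against 20.9% of all genes. That gene was DUSP10, which encodes MKP-5, a phosphatase of p38 and JNK. Its log2 value was 5.64 and 5.34 with SHP2 miR2, 5.39 and 5.37 with SHP2 miR1, and 5.83 and 6.37 with CTRL miR. All 4 SHP2 miR arrays were below both controls, but the controls differed by 0.54. The average difference was -0.67 (SE 0.18, 1.59-fold, 95% interval -1.07 to -0.27, adjusted p = 0.0715). Without CTRL miR replicate 2 the DUSP10 difference was -0.40 (adjusted p = 0.487), and without CTRL miR replicate 1 it was -0.94 (adjusted p = 0.0643). DUSP16, encoding the JNK and p38 phosphatase MKP-7, had 6.76 and 6.34 with SHP2 miR2, 6.36 and 6.44 with SHP2 miR1, and 6.51 and 6.82 with CTRL miR, a difference of -0.19 (95% interval -0.56 to 0.18, adjusted p = 0.540). DUSP8, encoding a JNK and p38 phosphatase described in brain and heart, had 5.50 and 5.22 with SHP2 miR2, 5.89 and 5.35 with SHP2 miR1, and 5.71 and 5.45 with CTRL miR, a difference of -0.09 (95% interval -0.50 to 0.32, adjusted p = 0.815). The groups of both DUSP16 and DUSP8 overlapped.

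**Figure D2:**
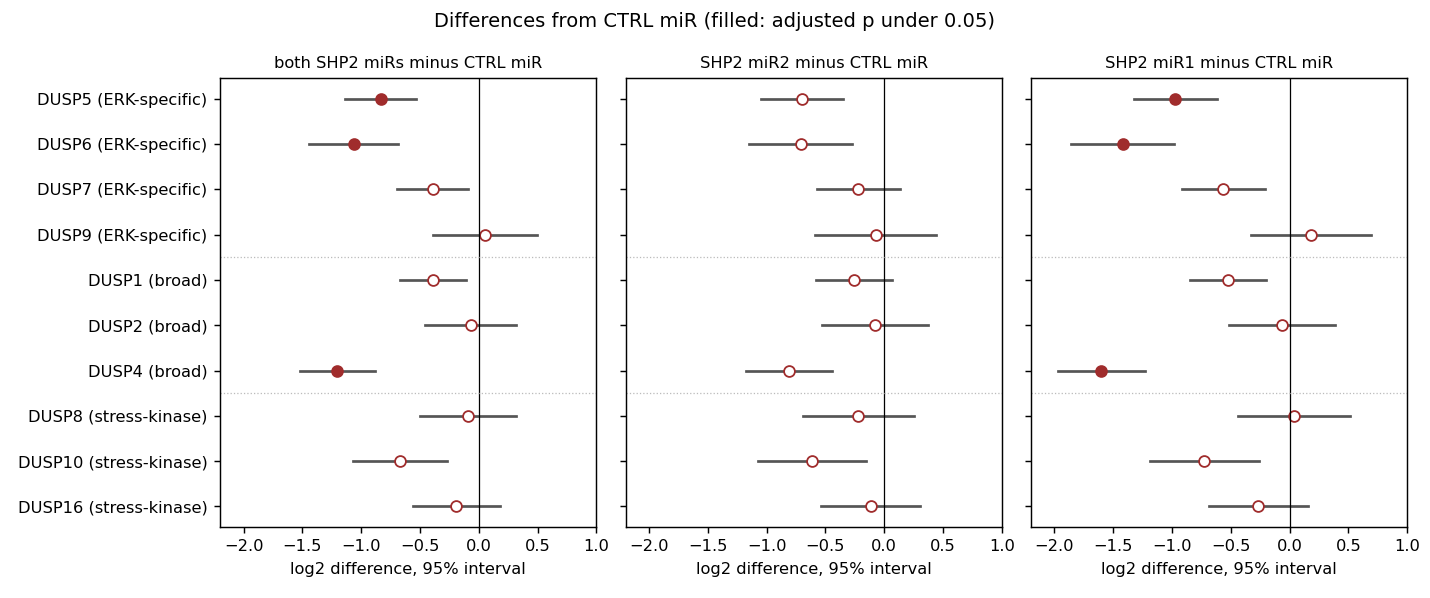
Log2 differences (x axis) of the 10 genes, grouped by substrate preference, for both SHP2 miRs, SHP2 miR2 and SHP2 miR1, each minus CTRL miR, with 95% intervals of the limma fit. Filled points have an adjusted p under 0.05. DUSP5, DUSP6 and DUSP4 are filled for both SHP2 miRs and for SHP2 miR1, and no point is filled for SHP2 miR2.

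Set side by side, the substrate classes differed in their medians but overlapped gene by gene. The median average difference was -0.61 for the ERK-specific members, -0.39 for the broad members and -0.19 for the stress-kinase members, beside 0.02 for all genes. The stress-kinase median rested on single arrays, being -0.35 without CTRL miR replicate 1, where the broad median was -0.36, and -0.087 without SHP2 miR2 replicate 2. Lower calls were 2 of 4 ERK-specific, 1 of 3 broad and 0 of 3 stress-kinase members, and 3 of 4, 2 of 3 and 1 of 3 lay below both controls on all 4 SHP2 miR arrays. Within classes the spread was wide. The ERK-specific differences ran between -1.06 (DUSP6) and 0.05 (DUSP9), the broad ones between -1.21 (DUSP4) and -0.07 (DUSP2), and the stress-kinase ones between -0.67 (DUSP10) and -0.09 (DUSP8). The order of single genes rested on the controls. Without CTRL miR replicate 1 the difference was -1.33 for DUSP6 and -1.25 for DUSP4, and without CTRL miR replicate 2 it was -0.51 for DUSP7 and -0.40 for DUSP10.

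Taken singly, the class medians were -0.46 (ERK-specific), -0.26 (broad) and -0.22 (stress-kinase) with SHP2 miR2, and -0.77, -0.52 and -0.27 with SHP2 miR1, in the same order of classes. Relative to the control mean, the ERK-specific median was -0.48 and -0.43 on the SHP2 miR2 arrays and -0.69 and -0.84 on the SHP2 miR1 arrays, while the controls lay at 0.02 and -0.02. The broad median was -0.23 and -0.32 with SHP2 miR2 and -0.54 and -0.50 with SHP2 miR1, with controls at -0.04 and 0.04. The stress-kinase median was -0.08 and -0.36 with SHP2 miR2 and -0.31 and -0.23 with SHP2 miR1, with controls at -0.16 and 0.16. On SHP2 miR2 replicate 1 the stress-kinase median therefore lay within the range of the controls, and on SHP2 miR2 replicate 2 it was lower than the broad median. The differences between classes were not tested, since the members were chosen with results known.

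With SHP2 miR1 alone the same 3 genes fell, 3 of 10 lower and 0 higher, against 5.94% and 2.66% of all genes (8.60% in either direction). DUSP4 fell by 1.601 (SE 0.16, 3.03-fold, adjusted p = 0.000889), DUSP6 by 1.42 (SE 0.19, 2.68-fold, adjusted p = 0.00369) and DUSP5 by 0.97 (SE 0.16, 1.96-fold, adjusted p = 0.00802). DUSP1 and DUSP7 narrowly missed the threshold at -0.52 and -0.56 (adjusted p = 0.0556 and 0.0563), as did DUSP10 at -0.72 (adjusted p = 0.0596). Without SHP2 miR1 replicate 2, DUSP5 missed it at -0.88 (adjusted p = 0.0577), and without CTRL miR replicate 1, DUSP10 passed at -0.996 (adjusted p = 0.0394).

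With SHP2 miR2 alone 0 of 10 passed in limma, against 0.180% of all genes lower and 0.190% higher (0.370% in either direction), and 4 of 10 had an unadjusted p under 0.05, against 11.02% of all genes. All 10 differences were below 0, with a median of -0.24 beside -0.01 over all genes. DUSP4 had -0.81 (SE 0.16, 95% interval -1.18 to -0.44, adjusted p = 0.0871), DUSP6 -0.71 (SE 0.19, adjusted p = 0.207), DUSP5 -0.70 (SE 0.16, adjusted p = 0.121) and DUSP10 -0.61 (SE 0.20, adjusted p = 0.305). Both comparisons use the same control arrays, so their values are not independent.

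Between the SHP2 miRs 0 of 10 members passed in limma, against 0.190% of all genes (0.152% higher and 0.0381% lower with SHP2 miR2), and 2 of 10 had an unadjusted p under 0.05, near the 17.7% of all genes that did. These were DUSP4, with SHP2 miR2 higher than SHP2 miR1 by 0.79 (SE 0.16, 95% interval 0.42 to 1.16, adjusted p = 0.0966), and DUSP6, higher by 0.71 (SE 0.19, 95% interval 0.27 to 1.15, adjusted p = 0.141). PTPN11 itself was 1.21 higher with SHP2 miR2 than with SHP2 miR1 (SE 0.22, adjusted p = 0.0645). For DUSP5 the difference was 0.27 (95% interval -0.08 to 0.62), and for DUSP10 it was 0.11 (95% interval -0.35 to 0.57). The order of group means was SHP2 miR1 lowest, then SHP2 miR2, then CTRL miR for PTPN11, DUSP4, DUSP5, DUSP6, DUSP7, DUSP1, DUSP10 and DUSP16. The difference between the neighbours SHP2 miR2 and SHP2 miR1 did not pass for any of them. For DUSP10 and DUSP16 the arrays of the SHP2 miRs overlapped. The share of all genes with that order of means was not counted.

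The calls depended on both controls being used. A fit with 1 control array also called fewer genes over all genes tested, so a lost call is not particular to these members. Without CTRL miR replicate 2, DUSP4, DUSP5 and DUSP6 missed the threshold in the average comparison. Their differences were then -1.17, -0.94 and -0.80. Without CTRL miR replicate 1 the differences were -1.25, -0.73 and -1.33, and DUSP5 missed the threshold. Without any 1 of the SHP2 miR arrays all 3 passed. With a prior variance that follows mean value, DUSP1, DUSP7 and DUSP10 passed as well (adjusted p = 0.000251, 0.0126 and 0.0313), which made 6 of 10, and 1793 genes passed in place of 771. With dim genes left out DUSP10 passed too (adjusted p = 0.0481).

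**Figure D3:**
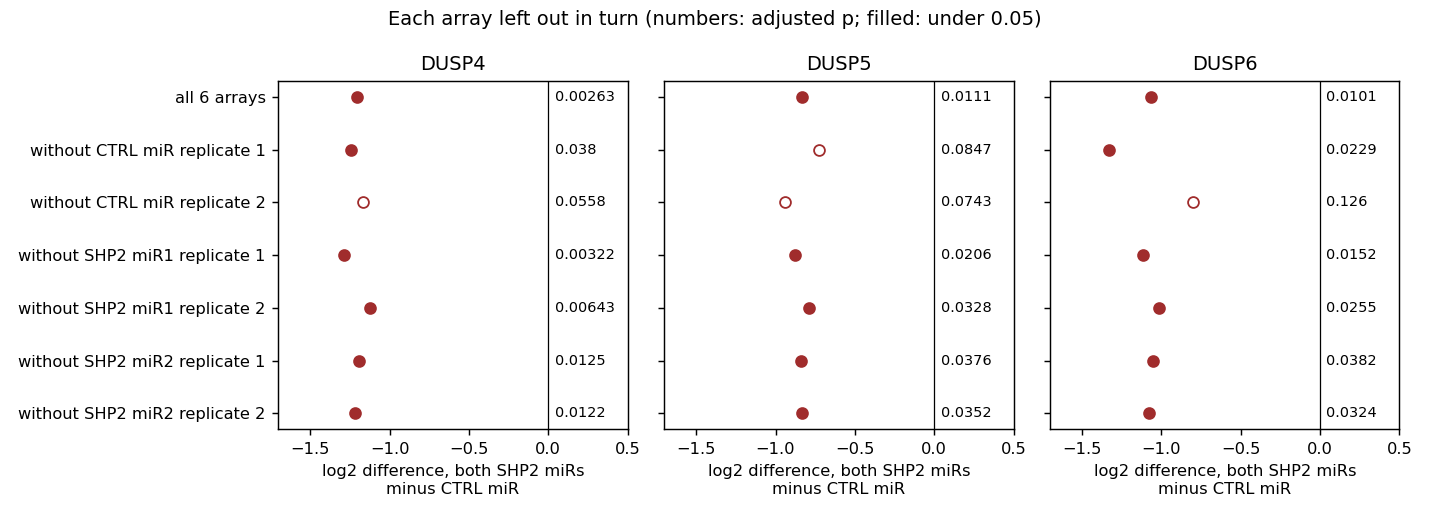
Average log2 difference of DUSP4, DUSP5 and DUSP6 (x axis, both SHP2 miRs minus CTRL miR) with all 6 arrays and with each array left out. Printed numbers are adjusted p-values and filled points are under 0.05. The differences stay negative in every setting, between -1.33 and -0.73 over the 3 genes, and each of the 4 open points is a fit without a control array.

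The profiles most like those of the called members were found by the root mean square difference over the 6 arrays after centring each gene on its mean. For DUSP4 the nearest genes were ANXA3 (0.0875 log2 units), ATG16L1 (0.102) and NAV1 (0.104). For DUSP5 they were DMBT1 (0.0585), RHOB (0.0752) and IER3 (0.0787), and for DUSP6 ATP13A3 (0.0879), RPGR (0.0913) and MOSPD2 (0.0933). IER3, an ERK-induced early response gene, was the only one of these 9 that also stood in a list described here.

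Some other ERK-induced transcripts also fell with the SHP2 miRs. Of 24 measured, 8 fell and 0 rose in the average comparison (4.20% of all genes were called), with a median of -0.45. By direction, 2.67% of all genes were lower and 1.53% higher. The differences of 19 were below 0 and those of 5 above, the highest being 0.46. With SHP2 miR1 alone 12 were lower, against 5.94% of all genes. With SHP2 miR2 alone only SPRY4 was lower, against 0.180% of all genes. SPRY4, a Sprouty inhibitor of receptor signalling, fell by 1.84 (SE 0.13, adjusted p = 0.000203), the transcription factor EGR1 by 0.92 (SE 0.15, adjusted p = 0.0122), IER3 by 0.88 (SE 0.14, adjusted p = 0.00924) and PHLDA1 by 0.64 (SE 0.13, adjusted p = 0.0256). SPRY4 passed with any array left out, while IER3, EGR1 and PHLDA1 reached adjusted p-values of 0.109, 0.149 and 0.189.

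The kinases on which the phosphatases act, and the MAP2Ks above them, had a median of -0.05. Of 14 measured, 1 was higher and 1 lower, against 1.53% and 2.67% of all genes. MAP2K6, a kinase that activates p38, rose by 0.79 (SE 0.13, adjusted p = 0.0104), and MAP2K1, a kinase that activates ERK, fell by 0.76 (SE 0.14, adjusted p = 0.0180). They reached adjusted p-values of 0.0874 and 0.158 with an array left out.

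The remaining dual specificity phosphatases, mostly small atypical enzymes without a MAP kinase docking domain, did not pass in limma. Of 17 measured 0 were called and 5 had an unadjusted p under 0.05 (20.9% of all genes did), with a median of -0.03. STYX, a catalytically inactive relative, had -0.62 (adjusted p = 0.0535), and DUSP23 had 0.52 (adjusted p = 0.0611). With SHP2 miR1 alone 2 were lower and 1 higher, against 5.94% and 2.66% of all genes. These were STYX at -0.94, DUSP12 at -0.63, which was chosen after its value was seen, and DUSP23 at 0.58. Of 10 other phosphatases that can act on MAP kinases 0 passed and 3 had an unadjusted p under 0.05, beside the same 20.9%, with a median of -0.09. The tyrosine phosphatase gene PTPN7 had 0.46 (adjusted p = 0.173) and the PP2A scaffold gene PPP2R1B had -0.34 (adjusted p = 0.187).

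Stress-kinase response genes had 1 of 14 lower and 0 higher, against 2.67% and 1.53% of all genes, with a median of -0.08. The 1 gene was JUN, an AP-1 subunit and JNK substrate, which fell by 0.68 (SE 0.13, adjusted p = 0.0250) and reached 0.238 with an array left out. Of 10 glucocorticoid response genes 5 were higher and 0 lower, against 1.53% and 2.67% of all genes, and their median was 0.37. The kinase gene SGK1 rose by 0.91 (SE 0.14, adjusted p = 0.00973), the transcription factor CEBPD by 0.72 (SE 0.14, adjusted p = 0.0225), the metallothionein MT1X by 0.62 (SE 0.13, adjusted p = 0.0335) and ZBTB16 by 0.61 (SE 0.13, adjusted p = 0.0360). With an array left out these 4 reached adjusted p-values of 0.0801, 0.209, 0.293 and 0.265. Metallothionein transcripts are close copies of each other, so the MT1X probe set may bind more than 1 of them.

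**Figure D4:**
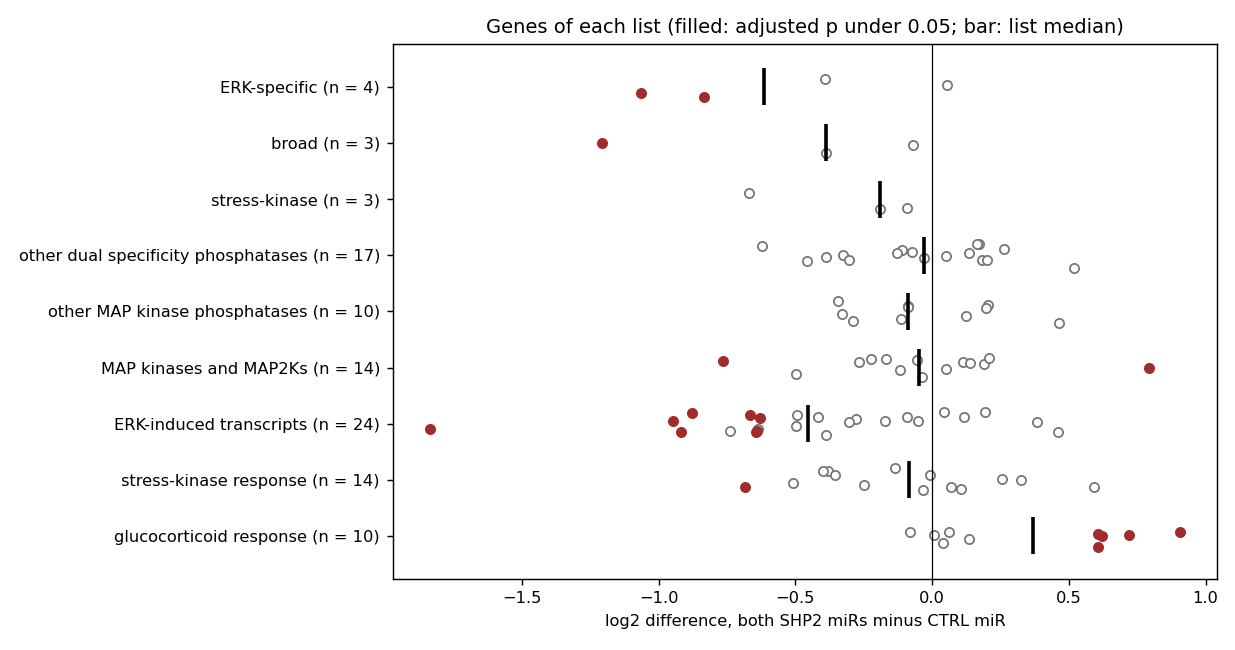
Average log2 difference (x axis, both SHP2 miRs minus CTRL miR) of every measured gene in the 3 phosphatase classes and 6 related lists. Points are genes, filled where adjusted p was under 0.05, and bars are list medians. The ERK-specific and ERK-induced lists have the lowest medians (-0.61 and -0.45) and the glucocorticoid list the highest (0.37).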

How the data were processed

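The 6 arrays were of the Affymetrix type HuGene-1_0-st-v1, which has 1 colour and no read depth, so the number of arrays limits the precision. The deposited values are the authors' processed log2 values per probe set. The base was inferred from their range. R 2.10 and oligo 1.8 were used, per the submitters' processing notes, with background correction, normalization and summary not given in the sources used.

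Groups and replicate numbers came from the sample titles. The platform annotation gave 1 symbol to 19310 of 28869 probe sets, several to 1752 and none to 7807. The probe set of highest mean was kept per gene, which left 18377 genes. Group means were modelled over the 6 arrays together in limma 3.58.1 under R 4.3.3 (lmFit, eBayes, 3 residual and 6.10 prior degrees of freedom). P-values are two-sided, with Benjamini-Hochberg adjustment over all genes and a threshold of 0.05. The fit was tested on simulated data in the average comparison. Of 100 genes changed by 1 on the log2 scale 59% passed, and of 100 changed by 2, 94%. Among unchanged genes 1 passed. Smaller changes were not simulated. Fold sizes are 2 to the power of the log2 difference.

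Members and gene lists were chosen with earlier results of these data known. Named genes were the members, PTPN11, ERBB2, ERBB3, up to 4 passing genes per list by smallest p (or 2 where none passed) and the 3 nearest profiles per called member. Alternatives were a variance trend, a robust prior, leaving out genes at or below the 40th percentile, quantile normalization, median centring, averaging probe sets, array weights, only the groups compared, a replicate block and leaving out each array. Promoter windows came from RefSeq tables of GRCh38.p14.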

Additional observations from a re-analysis of the deposited data

Results flagged for a closer look

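The difference between the SHP2 miRs was itself past the threshold for 2 of the named genes, both ERK-induced transcripts. SPRY4 was 1.09 higher with SHP2 miR2 than with SHP2 miR1 (SE 0.14, limma adjusted p = 0.0310), having -1.29 with SHP2 miR2 and -2.38 with SHP2 miR1 relative to CTRL miR. PHLDA1 was 1.001 higher with SHP2 miR2 than with SHP2 miR1 (SE 0.15, limma adjusted p = 0.0421), having -0.14 with SHP2 miR2 and -1.14 with SHP2 miR1 relative to CTRL miR. Among the 10 phosphatase genes 0 passed that test in limma, and 2 had an unadjusted p under 0.05, against 17.7% of all genes.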

How the results depend on the processing

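The 3 calls of the average comparison (DUSP4, DUSP5 and DUSP6) passed under a robust prior, quantile normalization, median centring, averaged probe sets and array weights, and the directions of DUSP4, DUSP5, DUSP6, DUSP7 and DUSP1 held under every alternative run. With a variance trend, called members numbered 6 for both SHP2 miRs, 6 for SHP2 miR1, 3 for SHP2 miR2 (in place of 0) and 3 between the SHP2 miRs (in place of 0). With SHP2 miR1, 6 members also passed with dim genes left out and with median centring, and with SHP2 miR2, 1 (DUSP4) passed with dim genes left out. Fewer genes were tested without dim genes (13047), and the cause of the other changes was not tested. With an array left out, called members ran between 0 and 3 for both SHP2 miRs, 2 and 4 for SHP2 miR1, and 0 and 0 for SHP2 miR2 and between the SHP2 miRs. With an array left out the class medians ran between -0.65 and -0.50 (ERK-specific), -0.41 and -0.36 (broad) and -0.35 and -0.087 (stress-kinase). Deviations of same-numbered arrays from their group means had low positive correlations (r = 0.0669, 0.140 and 0.0134 over genes). The labels do not say what the replicate numbers stand for, and whether same-numbered arrays share a batch was not tested. With the replicate block, 3, 3, 0 and 0 members passed for both SHP2 miRs, SHP2 miR1, SHP2 miR2 and between them, as without it, and over all genes 817, 1709, 37 and 12 in place of 771, 1581, 68 and 35. Over all genes, the variance trend gave 1793, 2786, 367 and 446. Without dim genes SHP2 miR2 gave 154 and the SHP2 miRs compared with each other 95. That last comparison gave 69 with median centring, 55 with array weights and 12 on only its own groups. An array left out gave 108 to 512, 269 to 1308, 0 to 60 and 0 to 15. Differences near 0 changed sign. In the average comparison, with an array left out, DUSP9 lay between -0.12 and 0.23, DUSP8 between -0.23 and 0.043, and DUSP2 between -0.19 and 0.049. With SHP2 miR1 those genes lay between -0.17 and 0.53, -0.23 and 0.31, and -0.23 and 0.11, and DUSP8 was -0.0013 with quantile normalization and -0.045 with median centring. With SHP2 miR2, DUSP16 lay between -0.32 and 0.092, DUSP9 between -0.20 and 0.055, and DUSP2 between -0.32 and 0.16. Between the SHP2 miRs, DUSP9 lay between -0.60 and 0.091, DUSP2 between -0.26 and 0.22, DUSP8 between -0.53 and 0.012, DUSP10 between -0.042 and 0.27, and DUSP16 between -0.058 and 0.36, and DUSP2 was 0.0048 with quantile normalization and 0.071 with median centring. The average comparison already uses all groups, so it has no fit on only the groups compared.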
